A study of Homo sapiens with 6 samples.

Results

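The miRNAs described here are 10 mature miRNAs of the proximal cluster on chromosome 14q32, from miR-493 to miR-136, out of 2565 miRNA probes on the array. The set was chosen by position in this cluster, at a time when the detection and the TGF-β response of the same 6 arrays were already known. The values of that contrast are therefore given as a description. The members entered the fit across all miRNAs with the rest, but its p-values are no independent test of them, and none is given for a single member. All 10 names were found on the array, each as a single spot.

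The study profiled Panc-1 cells, an established human pancreatic ductal adenocarcinoma line, by 1-colour miRNA microarray with Cy5-labelled total RNA. Cells of both groups were kept for 72 h. The control group was 3 arrays of cells given no TGF-β, and the TGF-β group was 3 arrays of cells given the cytokine at 10 ng/mL. TGF-β is a secreted cytokine that drives epithelial-mesenchymal transition in many carcinoma cells. Since each group filled a slide of its own, a slide effect and a treatment effect cannot be told apart. Nothing in the labels says whether replicates were separate cultures, and p-values then measure only the spread between these samples, which may be technical.

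The cluster lies in the imprinted DLK1-DIO3 region, where the miRNAs and the long non-coding RNA MEG3 are expressed from the maternal chromosome. RTL1, a retrotransposon-derived gene with a role in placental development, is expressed from the paternal chromosome. Several miRNAs of the cluster are read from the strand opposite RTL1 and pair fully with its transcript, while other mRNAs are bound mainly through the seed of the miRNA.

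The mature sequences are shown because each probe reads 1 of these strands, and because the seeds tell whether members could be read as a family. They were taken from RefSeq (GRCh38.p14) and are written 5′ to 3′ in chromosome order, with the seed, bases 2 to 8, in capitals.
hsa-miR-493-5p: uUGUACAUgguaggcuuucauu
hsa-miR-493-3p: uGAAGGUCuacugugugccagg
hsa-miR-337-5p: gAACGGCUucauacaggaguu
hsa-miR-337-3p: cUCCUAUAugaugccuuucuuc
hsa-miR-665: aCCAGGAGgcugaggccccu
hsa-miR-431-5p: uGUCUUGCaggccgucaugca
hsa-miR-433-3p: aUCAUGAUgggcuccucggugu
hsa-miR-127-3p: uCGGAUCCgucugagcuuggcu
hsa-miR-432-5p: uCUUGGAGuaggucauugggugg
hsa-miR-136-5p: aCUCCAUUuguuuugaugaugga
The opposite arm of the last precursor is added, since its values are set beside those of hsa-miR-136-5p.
hsa-miR-136-3p: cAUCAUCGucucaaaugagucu

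The 10 members carried 10 distinct seeds, and none of these seeds occurred in another human mature miRNA of the RefSeq table, which holds 2370 names. The members shared a location and not a seed. Their lengths were 20 to 23 bases and their GC content ran from 34.8% in hsa-miR-136-5p to 70.0% in hsa-miR-665. They came from 8 precursor genes on the plus strand of chr14:100869060-100884783, a stretch of 15724 bp that starts 8034 bp after the end of MEG3. MIR493, MIR337 and MIR665 lie before RTL1, and the end of MIR665 is 4649 bp from it. MIR431, MIR433, MIR127, MIR432 and MIR136 lie inside the interval of RTL1 (chr14:100879753-100903722, minus strand). The array files name no genome build, so these positions belong to the RefSeq annotation.

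Signals are given as log2 of the spot intensity above the mean of the blank spots, quantile normalized over the 6 arrays. Spots differ in how well they bind their target, so control and TGF-β arrays were compared within each probe, and a brighter or dimmer probe tells nothing of the amount of its miRNA. A miRNA counted as detected on an array where its intensity was above the blank mean plus 2 SD, with the blank mean and SD taken after the outer 5% of the 320 blank spots at each end were left out. The detection limit was 19.5 to 22.8 intensity units and the median miRNA spot gave 20.4 to 24.1 units, so much of the array was close to its background. Of all miRNAs, 1531 to 1604 were detected per control array and 1563 to 1787 per TGF-β array.

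Of the members, 9 were detected on all 6 arrays, against 1282 of the 2565 miRNAs. The remaining member, hsa-miR-432-5p, was detected on 5 arrays because its spot on TGF-β replicate 1 was flagged in the scanner output and left out. The members' unflagged spots lay 5.19 to 704 blank SDs above the blank mean. The cluster was thus measured in control cells as well as in treated cells. Panc-1 cells also gave miR-21-5p and miR-31-5p, common in carcinoma lines, on all 6 arrays. The epithelial miR-141-3p was detected on 0 arrays and miR-200c-3p and miR-205-5p on 1 each, while of the miRNAs of acinar or islet pancreas miR-217 was detected on 0, miR-375 on 1 and miR-216a-5p on 2. Another epithelial miRNA, hsa-miR-200b-3p, was detected throughout at least 1 group, with mean log2 values of 2.93 in control cells and 2.91 with TGF-β. Of the blood miRNAs, miR-142-3p was detected on 6 arrays, miR-451a on 5, miR-223-3p on 4 and miR-144-3p on 3, so detection by this rule can be weak evidence.

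After TGF-β, 9 of the 10 members had a higher mean than in control cells, with differences between -0.01 and 0.60 on the log2 scale and a median of 0.18. The tested miRNAs were the 1457 that were detected throughout the control group, the TGF-β group or both, and over them the median difference was -0.01, and 47.5% were above 0. limma's moderated test called 58 of these 1457 miRNAs at a Benjamini-Hochberg adjusted p under 0.05, which is 3.98%, and 38 were higher, which is 2.61%. That count was 25 without TGF-β replicate 2, 33 without TGF-β replicate 3 and 35 without control replicate 2, and 0 with limma's normexp method on the local background in place of subtraction of the blank mean. The members are among the 1457, and limma called 0 of them, 4 had an unadjusted p under 0.05, beside 202 of the 1457, and the methods' t-test called 0 after adjustment, counts from which nothing is read because the contrast was known when they were chosen. The control and TGF-β arrays did not overlap for 3 members, hsa-miR-337-3p, hsa-miR-127-3p and hsa-miR-432-5p, each higher with TGF-β. Among all tested miRNAs, 8.85% lay apart in that direction and 10.2% lay apart in the lower direction, where 0 members fell.

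**Figure D1:**
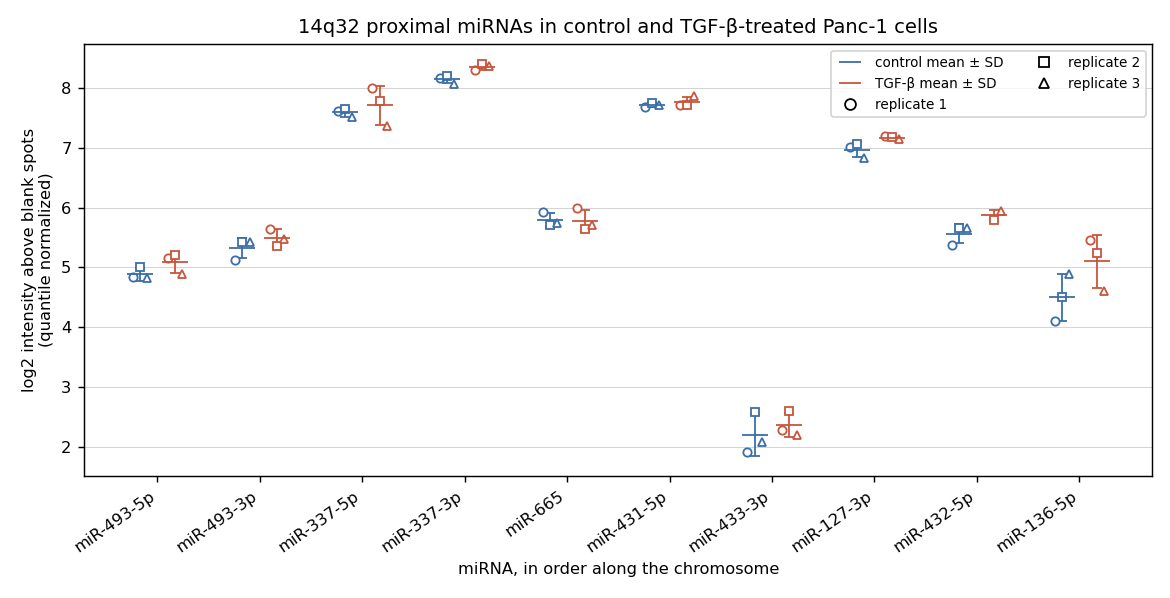
Normalized log2 intensity above the blank spots (vertical axis) of each of the 10 members (horizontal axis, in chromosome order) on 3 control arrays (blue) and 3 TGF-β arrays (red), with marks for the replicate, a line at the mean and a bar of 1 SD. The groups are apart for hsa-miR-337-3p, hsa-miR-127-3p and hsa-miR-432-5p, which has 2 TGF-β values, and the widest spread within groups is that of hsa-miR-136-5p.

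MIR493 (chr14:100869060-100869148) opens the cluster and gave a measured miRNA from each arm. The values of hsa-miR-493-5p were 4.84, 5.01 and 4.82 in control cells and 5.16, 5.21 and 4.88 with TGF-β. TGF-β replicate 3 lay among the control values, and the difference of 0.19 (SE 0.12, n = 3 a group) was larger than the pooled SD of 0.145. It was 0.30 without TGF-β replicate 3. Control values of hsa-miR-493-3p were 5.13, 5.42 and 5.42 and TGF-β values were 5.65, 5.36 and 5.47. Here control replicate 1 was the lowest value and TGF-β replicate 2 fell inside the control range, with a difference of 0.17 (SE 0.12) that was 0.067 without control replicate 1 and 0.09 without TGF-β replicate 1. The arms thus had like differences, with overlapping groups on both.

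MIR337 (chr14:100874493-100874585) gave the member with the brightest probe on 1 arm and a member of wider spread on the other. Control arrays had hsa-miR-337-3p at 8.17, 8.21 and 8.08, and TGF-β arrays had it at 8.30, 8.41 and 8.37. Each TGF-β array was above each control array, and the means of 8.15 ± 0.070 and 8.36 ± 0.053 (SD, n = 3) differed by 0.21 (SE 0.069), a fold of 1.15. As scanned, TGF-β replicate 1 read 319 units and lay below control replicate 3 at 333, so this separation was seen on the normalized scale and not as scanned. It also held in the authors' processed values, at 1016, 1176 and 1051 in control cells and 1249, 1779 and 1356 with TGF-β. For hsa-miR-337-5p, control values of 7.62, 7.66 and 7.51 stood beside TGF-β values of 8.0, 7.78 and 7.36. TGF-β replicate 1 was the highest and TGF-β replicate 3 the lowest of all 6, so the groups overlapped and the difference of 0.12 (SE 0.14) was smaller than the pooled SD of 0.237. Without TGF-β replicate 3 the difference of hsa-miR-337-5p was 0.29 and without TGF-β replicate 1 it was -0.03.

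MIR665 (chr14:100875033-100875104) gave the member with the lowest difference. In control cells hsa-miR-665 was at 5.93, 5.71 and 5.74, beside 5.99, 5.64 and 5.70 with TGF-β. Replicate 1 was the highest in both groups and the groups overlapped, although replicates 2 and 3 were slightly lower with TGF-β than in control cells, with a difference of -0.01 (SE 0.11) against a pooled SD of 0.156. Leaving out 1 array at a time gave -0.12 to 0.06.

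The members inside the RTL1 interval had differences from 0.04 to 0.60 with a median of 0.20, beside -0.01 to 0.21 with a median of 0.17 for the 5 members before RTL1. In chromosome order the first is MIR431 (chr14:100881007-100881120). Its 5p arm, hsa-miR-431-5p, was at 7.69, 7.75 and 7.72 in control cells and at 7.72, 7.72 and 7.86 with TGF-β. The values were close on every array except TGF-β replicate 3, and the difference was 0.04 (SE 0.073). It had the smallest SD of the members among control arrays, 0.032, and even so the difference was smaller than its SE and was -0.0045 without TGF-β replicate 3.

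MIR433 (chr14:100881886-100881978) gave the member with the dimmest probe. The intensity of hsa-miR-433-3p before subtraction of the blanks was 21.6 to 26.3 units in control cells and 23.9 to 25.6 units with TGF-β, or 5.19 to 11.9 blank SDs above their mean. Its log2 values were 1.91, 2.58 and 2.08 in control cells and 2.28, 2.59 and 2.20 with TGF-β. Replicate 2 was the highest of each group and the groups overlapped, with a difference of 0.17 (SE 0.22) below the pooled SD of 0.286. Without control replicate 1 the difference was 0.028, without TGF-β replicate 2 it was 0.052, and without control replicate 2 it was 0.37.

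MIR127 (chr14:100882979-100883075) encodes a miRNA known to repress the transcription factor BCL6. Control arrays gave hsa-miR-127-3p values of 7.02, 7.06 and 6.83 and TGF-β arrays gave 7.20, 7.18 and 7.15. The TGF-β arrays were close together and all above the control arrays, with means of 6.97 ± 0.13 and 7.17 ± 0.023 (SD, n = 3) and a difference of 0.20 (SE 0.084), which was 0.13 without control replicate 3. Its intensities before normalization were 139, 146 and 156 units in control cells and 151, 174 and 167 units with TGF-β, where TGF-β replicate 1 lay below control replicate 3. The separation of the groups was therefore seen on the normalized scale and not in the intensities as scanned. In the authors' processed values the groups were also apart, at 499, 546 and 452 in control cells and 548, 743 and 571 with TGF-β.

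MIR432 (chr14:100884483-100884576) carries the flagged spot. Control values of hsa-miR-432-5p were 5.38, 5.65 and 5.66, and the 2 unflagged TGF-β values were 5.80 and 5.94. Both were above all control arrays, and the difference was 0.30 (SE 0.12, n = 3 and n = 2). The flagged spot read 154 units, while the highest control spot read 79.3 and the unflagged TGF-β spots read 79.6 and 86.3. Its local background was 643 units, against 24.9 to 55.1 units beside the same spot on the other arrays. With that spot kept, the difference would have been 0.76, so 1 spot moved the value by more than 1.5 times.

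MIR136 (chr14:100884702-100884783) closes the cluster and gave the largest difference among the members. Control arrays gave hsa-miR-136-5p values of 4.10, 4.50 and 4.89, and TGF-β arrays gave 5.45, 5.24 and 4.61. TGF-β replicate 3 lay below control replicate 3, so the groups overlapped in spite of a difference of 0.60 (SE 0.23), a fold of 1.52. The SDs of 0.40 and 0.44 were the largest of any member in either group. Leaving out 1 array at a time gave 0.40 to 0.85, and the highest of these came without TGF-β replicate 3.

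The opposite arm, hsa-miR-136-3p, was not among the members. Its values were 4.90, 5.04 and 5.37 in control cells and 5.80, 5.56 and 5.25 with TGF-β. The 6 arrays came in the same order for both arms, from control replicate 1 as the lowest to TGF-β replicate 1 as the highest. The difference of 0.43 (SE 0.16) had a limma adjusted p of 0.225 and did not pass the threshold. The 3p arm was above the 5p arm by 0.80, 0.54 and 0.48 log2 units in control cells and by 0.35, 0.32 and 0.64 with TGF-β, ranges that overlapped, and since the arms are read by different probes this gap is no ratio of amounts.

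The other arms and neighbours of the members were 8 more probes, of which 7 could be tested. limma called 0 of the 7, 1 had an unadjusted p under 0.05, hsa-miR-136-3p, and the methods' t-test also called 0 after adjustment. Their differences ran from -0.14 to 0.43 with a median of 0.15. For the precursors of MIR127, MIR432 and MIR433 the arms outside the set gave 0.13 (SE 0.12) for hsa-miR-127-5p, 0.16 (SE 0.18) for hsa-miR-432-3p and 0.19 (SE 0.23) for hsa-miR-433-5p. The MIR431 arms went opposite ways in sign, with -0.14 (SE 0.11) for hsa-miR-431-3p and 0.04 for hsa-miR-431-5p, and neither was larger than 1.5 times its SE. Of the neighbouring genes, hsa-miR-770-5p, whose gene lies inside the interval of MEG3, gave -0.01 (SE 0.24) and hsa-miR-370-3p gave 0.15 (SE 0.095). The last probe, hsa-miR-370-5p, was detected on 3 arrays and was not tested.

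The distal 14q32 cluster opens with MIR379, which starts 137283 bp after the end of MIR136, with MIR370 in between. Of its 74 probes, 67 were tested and 12 were called higher and 0 lower, with a median difference of 0.28 and a range of -0.72 to 0.91. The distal calls numbered 7, 5 and 8 without control replicate 1, 2 or 3, and 7, 3 and 4 without TGF-β replicate 1, 2 or 3, and 0 with normexp on the local background. The largest called differences were 0.91 (SE 0.074, limma adjusted p = 1.98e-05) for hsa-miR-154-3p, 0.89 (SE 0.12, adjusted p = 0.00136) for hsa-miR-485-3p and 0.82 (SE 0.16, adjusted p = 0.0117) for hsa-miR-543. The members' largest difference, that of hsa-miR-136-5p, was below these. The distal list was also compiled with earlier results known, and the difference between the clusters was not tested.

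**Figure D2:**
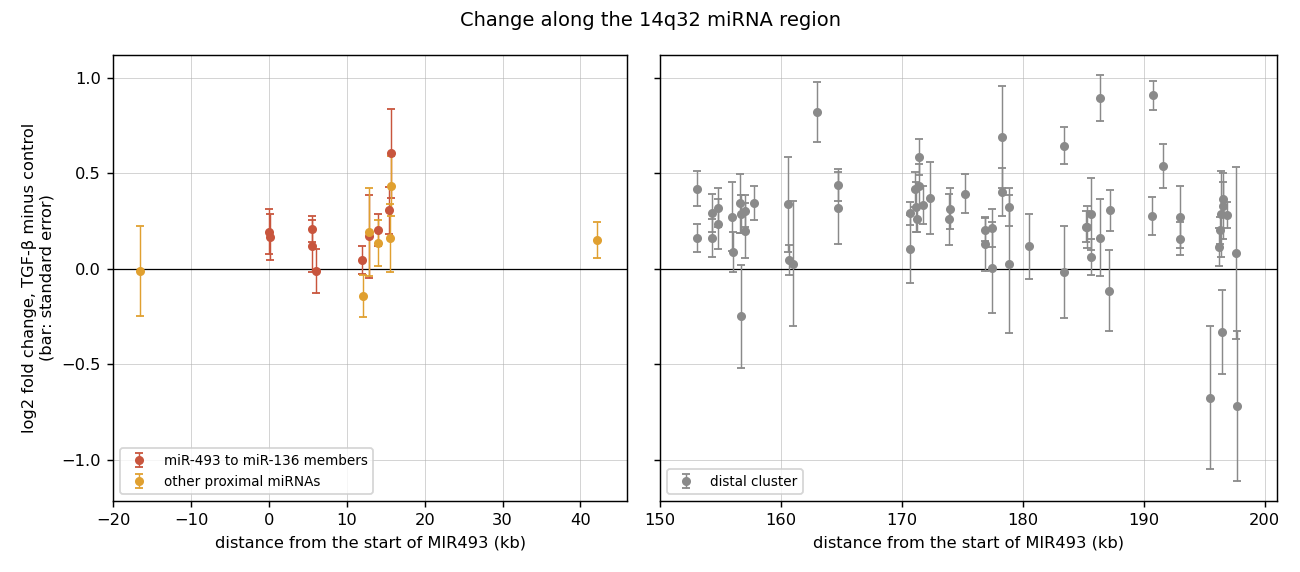
Log2 difference, TGF-β minus control (vertical axis, bar of 1 SE), against distance from the start of MIR493 in kb for the members (red), the other proximal miRNAs (orange) and the distal cluster (grey), with the empty stretch between the clusters left out. The members run from -0.01 to 0.60 and the distal miRNAs from -0.72 to 0.91.

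Each TGF-β array was also set against the control mean. On TGF-β replicate 1, 8 of the 9 measured members were above it, on replicate 2 it was 8 of 10 and on replicate 3 it was 7 of 10. The median member difference was 0.22, 0.22 and 0.13 on these arrays, while that of all miRNAs was -0.021, -0.0070 and 0.00073. TGF-β replicate 3 gave the lowest value of its group for 5 members and TGF-β replicate 1 the highest for 5. Among control arrays, replicate 2 was the highest for 7 members and replicate 1 the lowest for 5.

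**Figure D3:**
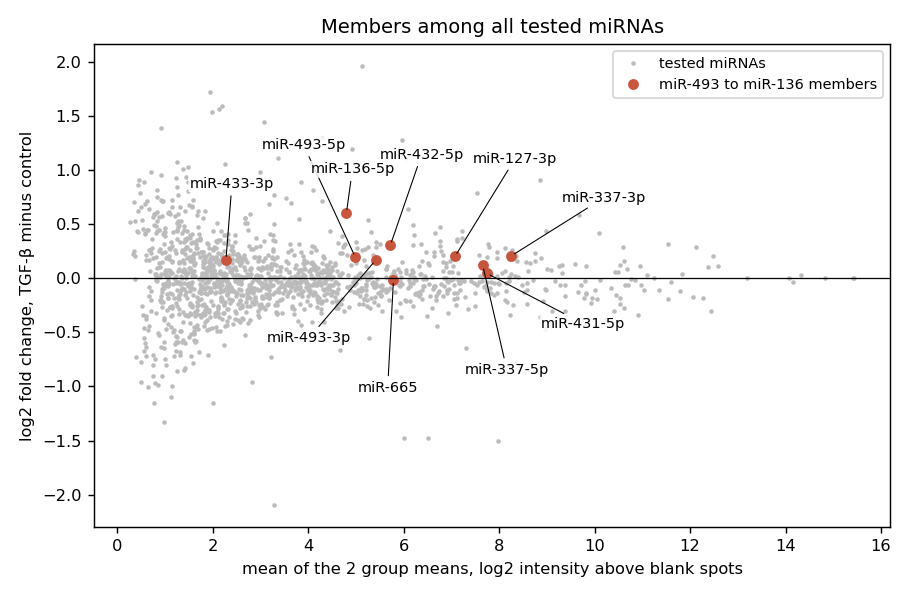
Log2 difference, TGF-β minus control (vertical axis), against the mean of the 2 group means in log2 intensity above the blanks (horizontal axis) for all 1457 tested miRNAs (grey) and the 10 members (red). The members lie near or above the line at 0, from -0.01 for hsa-miR-665 to 0.60 for hsa-miR-136-5p.

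For the member with the brightest probe, hsa-miR-337-3p, the nearest array patterns outside the 14q32 lists were sought among 1203 miRNAs detected on all 6 arrays. With each probe centred on its own mean, the smallest root mean square differences were 0.04 log2 units for hsa-miR-1273f, 0.05 for hsa-miR-23a-3p and 0.06 for the probe shared by hsa-miR-365a-3p and hsa-miR-365b-3p. These 6 points share slide and treatment, so the likeness is a description.

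The marker miRNAs were summed per array in normalized intensity units. The 4 fibroblast or smooth muscle miRNAs, miR-143-3p, miR-145-5p, miR-199a-3p and miR-214-3p, gave 14.1 to 18.1 units in control cells and 17.5 to 31.0 units with TGF-β, ranges that overlapped. Of these, 2 were detected on all 6 arrays and none was missing from all of them, and the difference of 1.57 for miR-143-3p did not pass the test (limma adjusted p = 0.0931). The 4 blood miRNAs also overlapped, with 6.23 to 12 units in control and 7.53 to 12.7 units in TGF-β arrays, where a sum of 4 would be the floor. The 2 miRNAs common in carcinoma lines gave 21821 to 23397 units in control cells and 23618 to 24453 units with TGF-β, and the 3 of acinar or islet pancreas gave 3 to 3.29 units and 3.50 to 4.04 units, near their floor of 3. Both of these were apart, but limma called neither miR-21-5p (difference 0.03, adjusted p = 0.81) nor miR-31-5p (difference 0.32, adjusted p = 0.063). The 3 of acinar or islet pancreas were detected on too few arrays to be tested. The 3 epithelial miRNAs gave overlapping sums of 3.33 to 3.74 units and 3 to 3.48 units. That list leaves out hsa-miR-200b-3p, at a mean log2 of 2.93 in control cells and 2.91 with TGF-β. The part of the markers in the members' values was not tested.

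The members' differences depended on the background correction. With normexp on the local background, which changes both the background and the way it is removed, hsa-miR-136-5p differed by 0.12 in place of 0.60, hsa-miR-493-3p by -0.12 and hsa-miR-337-5p by -0.09, and 6 of 10 members were above 0. With no background subtracted, hsa-miR-136-5p differed by 0.36 and hsa-miR-433-3p by 0.03, and the members' median was 0.12. In the authors' processed values all 10 were above 0, with a median of 0.31, but there the median of all miRNAs was also shifted, to 0.11, and the members' median was 0.20 above it. The differences of hsa-miR-493-5p, hsa-miR-337-3p, hsa-miR-127-3p, hsa-miR-432-5p and hsa-miR-136-5p stayed above 0 under the 15 alternatives run for single members, and that of hsa-miR-665 was below 0 under 11. Over those 15 the lowest and highest values were 0.18 and 0.42 for hsa-miR-337-3p and 0.09 and 0.31 for hsa-miR-127-3p.

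**Figure D4:**
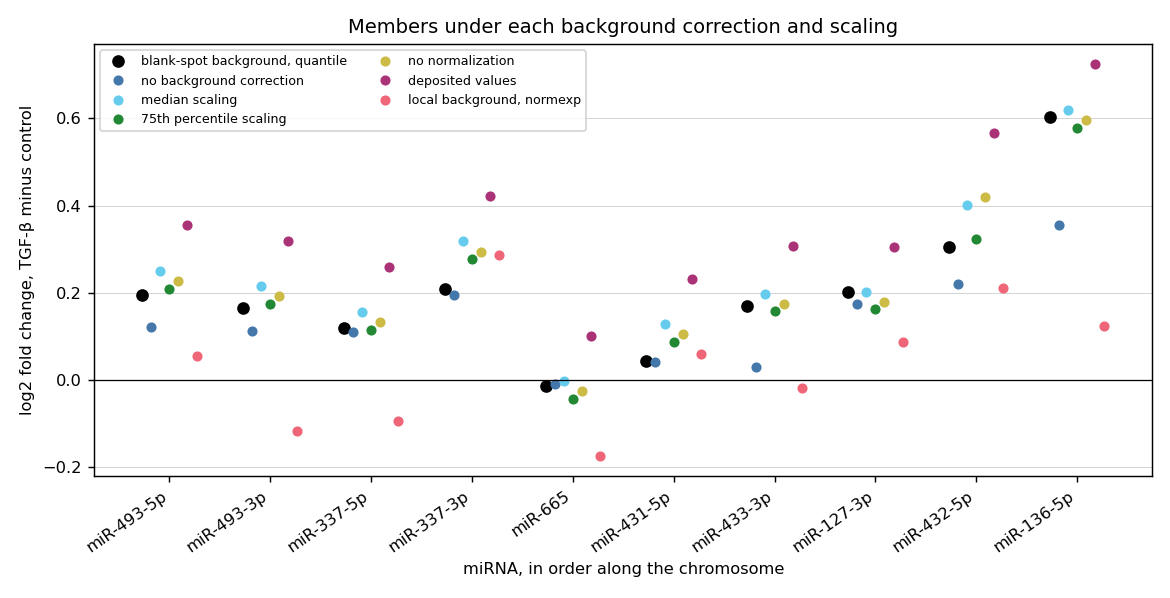
Log2 difference, TGF-β minus control (vertical axis), of each member (horizontal axis, in chromosome order) under the blank-spot background with quantile normalization (black) and under 6 other background or scaling choices (colours). For hsa-miR-136-5p the value falls from 0.60 to 0.12 with normexp on the local background, and the authors' processed values are the highest for each member.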

How the data were processed

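Panc-1 RNA, 3 control and 3 TGF-β samples, was read on 6 arrays with 3200 spots. Deposited by the authors were the scanner output, with a median intensity for each spot and its local background, linear and not normalized, and a table of processed intensities. That table was rebuilt to within rounding (largest difference 0.49992): the authors subtracted the trimmed blank mean, scaled every array to a median of 25 over its detected miRNAs and left values below detection empty. The steps were inferred from the values, since the study's text does not describe them.

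Here the trimmed blank mean was subtracted from each spot intensity, a floor of 1 unit was set, log2 values were quantile normalized, and limma (lmFit, eBayes with trend) compared the groups, 2-sided, with Benjamini-Hochberg adjustment over the 1457 miRNAs that all arrays of either group detected. The blank-spot background was preferred because an earlier analysis found that the local background rose with the spot's own signal. No values for that relation are given here. Flagged spots (3 miRNA spots) were missing, so hsa-miR-432-5p has 2 TGF-β values. R 4.3.3, limma 3.58.1, Python 3.11.15 and matplotlib 3.10.9 were used, and the procedure was tested on simulated data. Precision is limited by the number of arrays, and 3 against 3 allows no exact permutation p below 0.1.

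The members, the lists and the tests were chosen with earlier results of these data known. Named miRNAs are all members, the other proximal probes, the 3 largest called differences of the distal list, the 3 probes most like the member with the highest mean log2 value, and the markers. hsa-miR-136-3p is described further because it is the other arm of the member with the largest difference. Alternatives were other backgrounds, scalings, floors, detection rules and fits, a block for the replicate number, omission of each array and, added after seeing the data, the flagged spot kept. The members were part of the fit and its adjustment, but no p-value is given for a single member.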

Additional observations from a re-analysis of the deposited data

Results flagged for a closer look

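A signal appeared in a spot that the comparison did not use. The spot of hsa-miR-432-5p on TGF-β replicate 1, flagged in the scanner output, read 154 intensity units, above the highest control spot at 79.3 units. The local background around it was 643 units, so the reading lay below its own surroundings, at a ratio of background to signal of 4.16. On 1 array each, unflagged spots of hsa-miR-493-5p, hsa-miR-431-5p and hsa-miR-127-3p also lay below their local background. Their highest ratios were 1.05, 1.07 and 1.07, and that of hsa-miR-337-3p was 0.98.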

How the results depend on the processing

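The other proximal miRNAs gave 0 calls under every alternative run. The count over all miRNAs, 58, became 0 with normexp on the local background (34 at an unadjusted p under 0.05), 35 without normalization (27 higher), 31 with the authors' processed values (27 higher), 32 with limma without the trend and 17 with the methods' t-test (194 unadjusted), and was 25 to 51 with 1 array left out. The distal calls, 12, became 0 with normexp, 5 without normalization, 5 with the processed values, 7 with detection on at least 1 array, 3 without the trend and 2 with the t-test, and 3 to 8 with 1 array left out. The members' median of 0.18 was 0.06 (0.058) with normexp, 0.12 with no background correction, 0.31 with the processed values and 0.14 to 0.24 with 1 array left out. Of 150 alternative values of single members, 15 moved by more than 1 SD, and the cause was not tested. The replicate numbers are also the positions on the slide. Same-numbered arrays correlated in their deviations by 0.13, 0.11 and -0.03, and 3 of the 6 arrays correlated best with the array of their own number. With so few arrays this does not settle whether the numbers mark pairs. With the replicate block 60 miRNAs and 11 distal miRNAs were called. Among the members, low signal over the blank spots limits hsa-miR-433-3p most.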
